A study of Mus musculus with 18 samples.

Results

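The comparison described here is a difference of differences: how far the change measured with human FXR in white adipose tissue (WAT) departed from its change in brown adipose tissue (BAT). For each gene the FXR-minus-control change in BAT was subtracted from the same change in WAT, on the log2 scale, so that a positive difference marks a gene that moved further upward, or less far downward, in WAT. All 18 arrays of the series entered the comparison, and 19937 genes were tested. The genes described by name were restricted to the 6292 that were bright in both tissues, meaning that their mean level was at least 2 times the 1% quantile of the array in BAT and in WAT. Levels were averaged over both genotypes for this purpose, so a gene could pass through the genotype in which it was high. Of the 6292 genes 302 had at least 1 group mean below that level, and 50 of these were called for the difference. Among the 97 genes named below with a called difference they were Gys2, Kcnk3, Hsd17b7, Adam12 and Meg3 (control WAT below), Tgfb3 (control BAT), Inhba and Mfap4 (both control groups), and Angpt1 and Myc (FXR WAT). Of those called alike in both tissues, Cilp (control BAT) and Btnl9 (FXR WAT) were such genes. Fold changes and differences of these genes are those of the fit and rest on a group near background.

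The arrays came from 10-week-old male C57BL/6J mice on chow, with 500 ng of total RNA labelled per array. BAT was taken from 5 wild-type controls and 5 mice that overexpressed human FXR specifically in adipose tissue, and WAT from 4 animals of each genotype. The transgene is human, and its promoter, the number of founder lines and the WAT depot are not given in the sources used here. Nor is it stated if one mouse gave both tissues. The arrays of a group are biological replicates according to the series text. Control BAT 2 and 4 carry an extraction remark that adds a feeding period, which no other sample has.

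FXR, the farnesoid X receptor encoded by Nr1h4, is a nuclear receptor for bile acids that acts as a transcription factor, mostly as a partner of the retinoid X receptor. In liver and intestine it is known for controlling bile acid synthesis and transport, lipid and glucose metabolism. Brown adipocytes burn lipid to make heat through the uncoupling protein Ucp1, whereas white adipocytes store lipid and secrete hormones such as leptin, and the vessels, fibroblasts and macrophages around them make up the stroma of both tissues.

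The labelled tissues matched their markers. Ucp1 read 12.6 to 13.4 in BAT and 5.73 to 6.01 in WAT, in log2(intensity + 1), the scale used for all levels here. Lep, encoding leptin, read 6.37 to 6.65 in control BAT and 8.54 to 9.56 in control WAT. Array medians were 93.1 to 99.9 intensity units in BAT and 60.5 to 61.7 in WAT, which shows that no single distribution had been imposed on both tissues, and changes of dim genes are compressed, more so in WAT. Arrays of a group correlated across genes with r of 0.973 to 0.995. One feature separated the FXR BAT arrays from each other. The mean level of 35 skeletal muscle genes was 10.4, 9.73 and 10.5 on FXR BAT 1, 2 and 4, but 7.10 and 8.20 on FXR BAT 3 and 5, against 7.03 to 8.44 on control BAT and 6.15 to 6.21 on WAT arrays. In BAT 22 of these genes were called higher with FXR and 1 lower. For the difference between tissues limma called 0 of the 35, with 16 at an unadjusted p below 0.05, and the median over the list was -1.65 and 0.05 without FXR BAT 1, 2 and 4. Without FXR BAT 1, 2 and 4, which leaves 2 FXR BAT arrays, 18 of the 97 named calls were lost, and none changed sign. They were Mt2 (1.28 without these arrays), Dpt (-1.16), Serping1 (-1.01), Agt (-0.38), Cidec (0.44), Etfdh (0.36), Ndufa1 (0.43), Ogdh (0.31), Oxct1 (0.44), Pcolce (-0.78), Serpinf1 (-0.70), C1qa (-0.46), C1qb (-0.65), C1s1 (-0.63), Pf4 (-0.44), Csnk1d (0.16), Sod3 (0.36) and Esrra (0.30). Except for Csnk1d, these values lie within 1.5 times of those from all arrays. Leaving out control BAT 2 and 4 instead, the arrays with the feeding remark, lost 19 of the 97 named calls.

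Over all 19937 genes, 1288 were called for a difference between the tissues, or 6.46% (limma, Benjamini-Hochberg adjusted p below 0.05), with 885 positive (4.44%) and 403 negative (2.02%). Among the bright genes 873 were called (13.9%), of which 656 were positive (10.4%) and 217 negative (3.45%). The positive share of the bright calls was 75.1%, and it depended on how the arrays were scaled. It was 48.5% after quantile normalization of all arrays (252 positive, 268 negative), 48.8% after quantile normalization within each tissue (304 and 319) and 87.4% after median centring (1112 and 160). Of 97 genes named below with a called difference, 32 lost the call under the first of these settings, 27 under the second and 1 under the third, and none changed sign.

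Most differences were BAT changes without a called counterpart in WAT. Of the 873 bright genes, 532 (60.9%) fell in BAT and were not called in WAT, and 159 (18.2%) rose in BAT and were not called in WAT. A change called in WAT alone accounted for 41 positive and 18 negative differences. In 30 genes the expression fell in BAT and rose in WAT, and in 7 it rose in BAT and fell in WAT. A further 50 positive and 19 negative differences passed the test with neither tissue called. In BAT 2199 bright genes were called (34.9%), 706 higher (11.2%) and 1493 lower (23.7%). The excess of lower calls depended on the scaling, with 625 higher and 522 lower after quantile normalization of all arrays, 832 and 801 after quantile normalization within each tissue and 510 and 2678 after median centring. In WAT 307 were called (4.88%), 215 higher (3.42%) and 92 lower (1.46%), a split that became 350 and 326 after quantile normalization of all arrays and 203 and 150 within each tissue. The counts in the tissues are not a measure of unequal effects on their own, since WAT had 4 arrays per group and BAT 5, and the median standard error of a change was 0.072 in WAT and 0.065 in BAT. The SD of the changes over bright genes was 0.277 in BAT and 0.180 in WAT. The changes in both tissues correlated across the 6292 genes with Pearson's r of 0.346 and Spearman's rho of 0.200. This is a description across genes, which are not independent replicates.

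**Figure D1:**
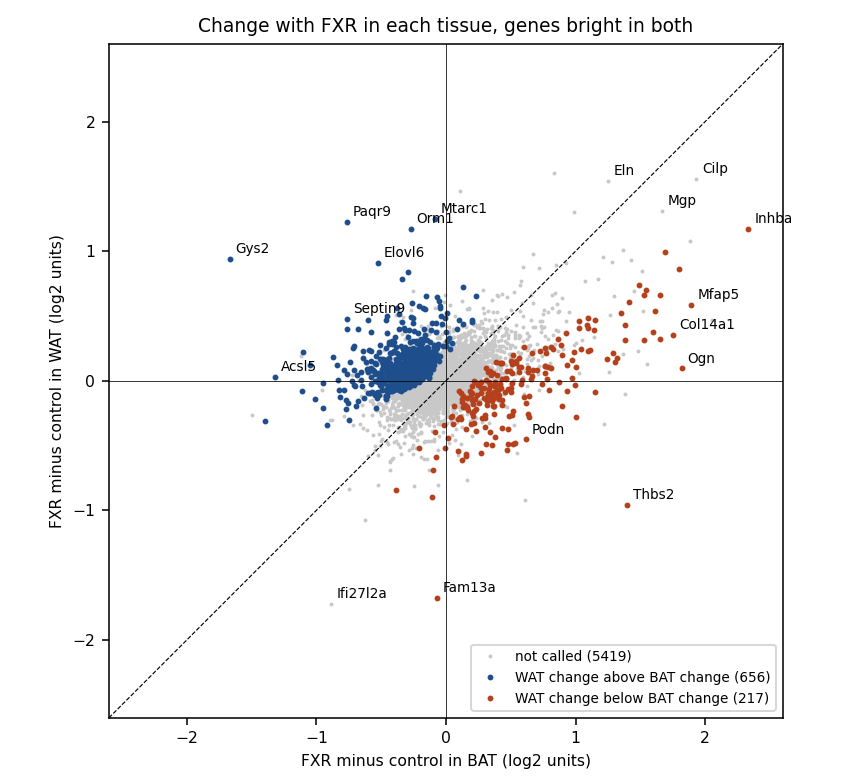
Change with FXR in BAT (x axis) and in WAT (y axis) for the 6292 bright genes, both in log2 units, FXR minus control; the dashed line marks equal changes. The 656 genes with a positive difference lie above the line and the 217 with a negative difference below it, and the cloud is wider along the BAT axis.

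The largest difference was that of Gys2, which encodes the liver-type glycogen synthase. It read 10.06, 10.35, 11.00, 10.33 and 10.27 on the control BAT arrays and 8.94, 9.09, 7.76, 9.26 and 8.63 on the FXR BAT arrays. In WAT it read 6.29, 6.07, 6.21 and 6.12 in controls and 7.04, 7.51, 6.73 and 7.20 with FXR. All FXR arrays were below the controls in BAT and above them in WAT, with no overlap in either tissue. Gys2 fell 3.17-fold in BAT, while the WAT change of 0.94 ± 0.26 log2 units (SE, n = 4 and 4) did not pass (adjusted p = 0.0737, limma). The difference was 2.61 ± 0.35 (adjusted p = 0.000366, limma), and the gap between BAT and WAT shrank from 4.23 in controls to 1.62 with FXR. The control WAT mean was 1.54 times the 1% quantile, below the level minimum of 2 times, which the FXR WAT mean passed at 3.00 times.

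Paqr9, a progestin and adipoQ receptor family member, was called in opposite directions. Control BAT arrays read 9.49, 9.65, 9.65, 9.67 and 9.26, and FXR BAT arrays 8.90, 8.83, 8.31, 8.99 and 8.88. In WAT the controls read 7.33, 6.85, 6.96 and 7.21 and the FXR arrays 8.87, 8.61, 7.83 and 7.94. The groups did not overlap in either tissue, and the level nearly met between tissues, with a BAT-minus-WAT gap of 2.45 in controls and 0.47 with FXR. The fall in BAT was 1.70-fold and the rise in WAT 2.34-fold, a difference of 1.99 ± 0.27 (adjusted p = 0.00039, limma).

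Elovl6, the fatty acid elongase that extends palmitate to stearate, followed the same course. It read 12.35, 12.14, 12.30, 12.11 and 12.26 on control BAT and 11.91, 11.93, 11.27, 11.93 and 11.50 on FXR BAT arrays. Control WAT arrays read 7.10, 6.53, 6.64 and 7.15 and FXR WAT arrays 8.07, 8.25, 7.33 and 7.41. Again no FXR array overlapped the controls. The change was -0.52 ± 0.18 in BAT and 0.91 ± 0.20 in WAT, and the difference was 1.43 ± 0.27 (adjusted p = 0.0041, limma).

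The other large positive differences had their called change in BAT, in WAT or in both. Acsl5, an acyl-CoA synthetase, fell 2.50-fold in BAT, from 11.6 to 11.9 on control arrays to 9.91 to 10.9 with FXR, with a WAT change of 0.03 ± 0.17 that did not pass. Its difference was 1.35 ± 0.23. Mt2, a metallothionein, fell by 1.10 in BAT. Sorl1, a sorting receptor, fell by 0.77 in BAT and read 6.67 to 6.84 on WAT arrays of controls and 6.87 to 7.26 with FXR, with no overlap and a WAT change of 0.40 ± 0.16 that did not pass (adjusted p = 0.312, limma). Mtarc1, a mitochondrial amidoxime-reducing enzyme, did the reverse. It rose 2.38-fold in WAT, from 6.46 to 6.78 on control arrays to 7.52 to 8.30 with FXR, with a BAT change of -0.08 ± 0.20 that did not pass, and differed by 1.34 ± 0.30. Orm1, encoding the acute-phase protein orosomucoid, rose 2.25-fold in WAT and differed by 1.44 ± 0.36. Insig1, which holds back the sterol sensor of the endoplasmic reticulum, rose 1.79-fold in WAT and differed by 1.13 ± 0.23. Septin9, a cytoskeletal GTPase, and Trp53inp2, an autophagy regulator, fell in BAT and rose in WAT, with differences of 1.24 ± 0.13 and 1.12 ± 0.14. Postn, encoding periostin, fell by 1.05 in BAT and differed by 1.17 ± 0.33 (adjusted p = 0.0399, limma). The calls of Postn and Mt2 were lost under either quantile normalization, and that of Orm1 under quantile normalization within each tissue.

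The largest negative difference belonged to Thbs2, encoding thrombospondin-2, a matricellular protein that inhibits angiogenesis. Control BAT arrays read 6.53, 6.70, 6.88, 6.74 and 6.65, and FXR BAT arrays 8.05, 8.28, 8.14, 7.95 and 8.06. Control WAT arrays read 7.59, 7.80, 8.66 and 8.45, and FXR WAT arrays 7.16, 6.83, 7.60 and 7.07. The BAT groups did not overlap, while in WAT the highest FXR array stood just above the lowest control. Thbs2 rose 2.63-fold in BAT and fell 1.95-fold in WAT, a difference of -2.36 ± 0.26 (adjusted p = 9e-05, limma). Its order between tissues was turned: BAT lay 1.42 log2 units below WAT in controls (-1.42) and 0.93 above it with FXR.

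Ogn, encoding the small leucine-rich proteoglycan osteoglycin, showed a BAT rise with no called WAT change. It read 6.91, 6.80, 7.34, 7.61 and 7.34 in control BAT and 9.00, 8.73, 9.41, 8.95 and 9.00 in FXR BAT. The WAT arrays read 7.78, 7.95, 8.34 and 7.62 in controls and 7.96, 8.03, 8.14 and 7.94 with FXR, values that overlapped. The rise in BAT was 3.53-fold, the WAT change 0.10 ± 0.17 and the difference -1.72 ± 0.23 (adjusted p = 0.000409, limma).

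Fam13a, a gene associated with fat distribution, was the member of the 12 largest negative differences whose called change lay in WAT alone. Control WAT arrays read 8.51, 9.21, 9.11 and 8.67 and FXR WAT arrays 6.59, 7.39, 7.68 and 7.14. All 4 FXR arrays lay below all 4 controls, a 3.19-fold fall. The BAT change was -0.07 ± 0.21, with overlapping arrays, 10.5 to 11.2 in controls and 10.1 to 11.2 with FXR. The difference was -1.60 ± 0.32 (adjusted p = 0.00574, limma).

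The remaining large negative differences were rises of stromal genes in BAT. Col14a1, a fibril-associated collagen, differed by -1.40 ± 0.30, Gpc3, a cell-surface proteoglycan, by -1.33 ± 0.17, and Mfap5, a microfibril protein, by -1.31 ± 0.25. They rose 3.37-fold, 3.15-fold and 3.72-fold in BAT, and none passed in WAT. Plxdc2, Ccdc80, Dpt (dermatopontin), Serping1 (the C1 inhibitor) and Emp1 followed with differences from -1.28 to -1.16, again with BAT called and WAT not. Inhba, the activin A subunit, was called in both tissues. It read 6.36 to 6.51 on BAT arrays of controls and 8.31 to 9.17 with FXR, and in WAT 5.82 to 6.13 and 6.52 to 7.54. It thus rose 5.04-fold in BAT and 2.25-fold in WAT, with a difference of -1.16 ± 0.26 (adjusted p = 0.0113, limma). Both control means lay below the level minimum, at 1.67 times the 1% quantile in BAT and 1.34 times in WAT, and Inhba passed it through the FXR arrays. The call for Inhba was lost under quantile normalization of all arrays. Those of Dpt and Serping1 were lost without FXR BAT 1, 2 and 4, where their differences were -1.16 and -1.01.

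**Figure D2:**
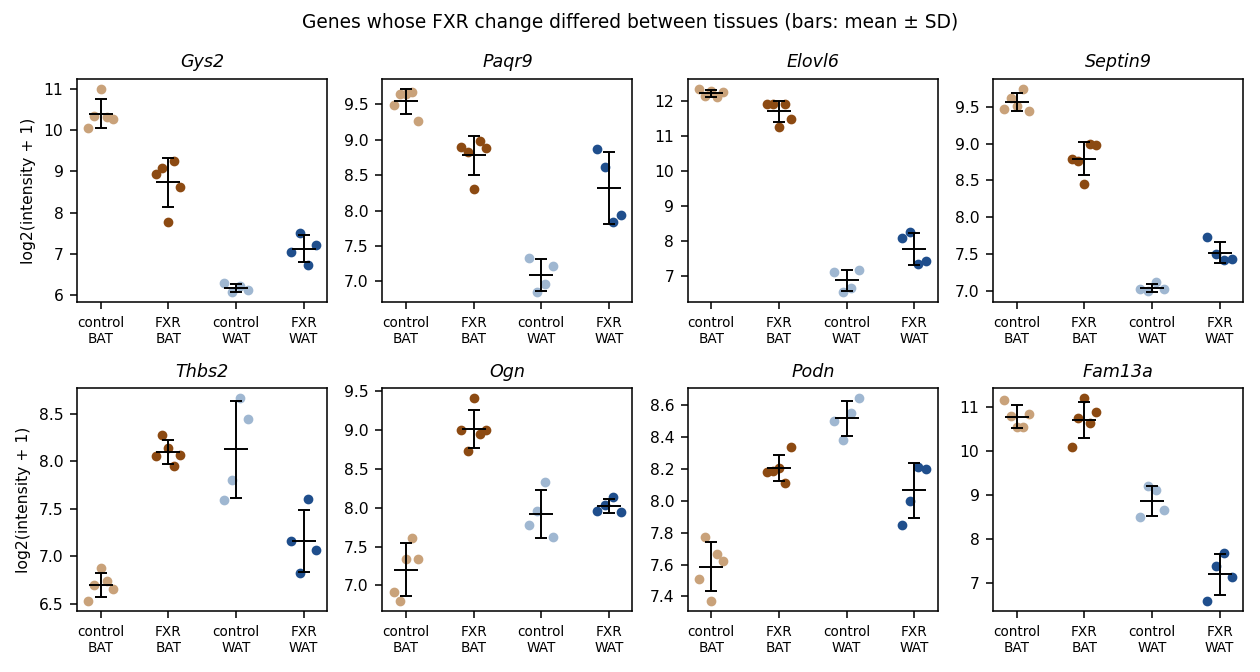
Levels of 8 genes on every array, in log2(intensity + 1), for control BAT, FXR BAT, control WAT and FXR WAT; points are arrays and bars the mean ± SD. Gys2, Paqr9, Elovl6 and Septin9 fell or were lower in BAT and were higher in WAT with FXR, Thbs2 and Podn did the reverse, Ogn moved in BAT and Fam13a in WAT.

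Opposite calls in both tissues were rare. Of the 6292 bright genes 37 had them (0.588%), and in 22 of these the arrays did not overlap in either tissue (0.35%). The 30 against 7 split between the directions depended on the scaling. It was 19 against 15 after quantile normalization of all arrays, 10 against 9 after quantile normalization within each tissue and 32 against 5 after median centring. Leaving out 1 array gave 15 opposite calls without FXR WAT 1 or without control WAT 2, 20 without FXR WAT 4, 21 without control BAT 2, 22 without control BAT 4, 23 without control WAT 1 and 24 without FXR BAT 5. There were 16 such calls without control BAT 2 and 4 (12 against 4) and 18 in fits within each tissue (15 against 3). With array weights there were 52, and with the filter before the fit 57. Lower in BAT and higher in WAT were 30 genes (0.477%), among them, by size of the difference, Paqr9, Elovl6, Septin9, Trp53inp2, Ctsz and Gpd1. Ctsz, encoding the lysosomal protease cathepsin Z, changed by -0.68 in BAT and 0.40 in WAT. Gpd1, the dehydrogenase that makes glycerol 3-phosphate for triglyceride, changed by -0.45 and 0.50. Others of the 30 were Dgat2, the last enzyme of triglyceride synthesis (-0.38 and 0.56), Hmgcs1, an early enzyme of the sterol pathway (-0.46 and 0.47), Hspa5, the chaperone BiP of the endoplasmic reticulum (-0.34 and 0.46), and Sod2, the mitochondrial superoxide dismutase (-0.40 and 0.30). Sod2 had the smallest adjusted p of all genes named here for the difference, 0.70 ± 0.06 (adjusted p = 1.48e-05, limma).

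The 7 genes with the reverse pattern were Thbs2, Podn, Mgst3, Grb14, Cited2, Eepd1 and Osbpl1a, the last of which was named after its values were seen (0.111% of bright genes). Podn, encoding the proteoglycan podocan, read 7.51, 7.77, 7.37, 7.67 and 7.62 in control BAT and 8.18, 8.18, 8.20, 8.11 and 8.34 with FXR. Its WAT levels were 8.50, 8.38, 8.55 and 8.64 in controls and 7.85, 8.00, 8.21 and 8.20 with FXR. No groups overlapped, and the difference was -1.07 ± 0.12 (adjusted p = 9.49e-05, limma). Grb14, an adaptor that inhibits the insulin receptor, rose by 0.48 in BAT and fell by 0.49 in WAT, without overlap in either tissue. Mgst3, a microsomal glutathione transferase, changed by 0.47 and -0.53, and Cited2, a transcriptional coregulator, by 0.38 and -0.43. Eepd1 changed by 0.22 and -0.33.

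**Figure D3:**
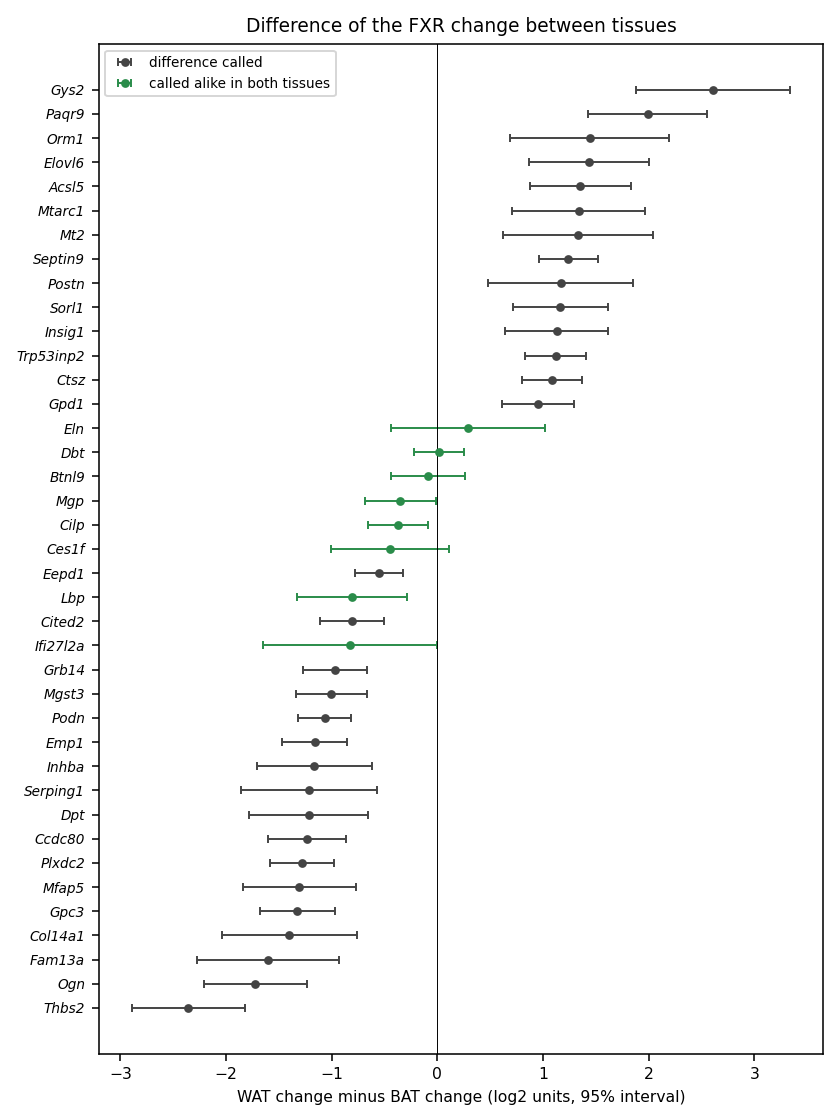
Difference of the FXR change between tissues (WAT change minus BAT change, log2 units) with its 95% interval for the named genes with the largest differences or opposite calls and for 8 genes called alike in both tissues. Gys2 at 2.61 and Thbs2 at -2.36 mark the ends. The genes called alike lie between them, and some of their intervals, such as those of Cilp and Lbp, leave out 0.

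Promoter sequence is shown for 4 of these genes because 3 of them moved together in the sterol and lipid group and 1 had the largest negative difference. The lines give the 250 bases before the transcription start, 5′ to 3′, from RefSeq on GRCm38.p6. Elovl6 lies at chr3:129532136-129532385 (+), Insig1 at chr5:28071162-28071411 (+), Hmgcs1 at chr13:119690101-119690350 (+) and Thbs2 at chr17:14694263-14694512 (-). Capitals mark AGGTCA, the nuclear receptor half-site, or its reverse complement TGACCT, the E-box CACGTG and, chosen after the values were seen, TCACNCCAC, a sterol regulatory element.
Elovl6: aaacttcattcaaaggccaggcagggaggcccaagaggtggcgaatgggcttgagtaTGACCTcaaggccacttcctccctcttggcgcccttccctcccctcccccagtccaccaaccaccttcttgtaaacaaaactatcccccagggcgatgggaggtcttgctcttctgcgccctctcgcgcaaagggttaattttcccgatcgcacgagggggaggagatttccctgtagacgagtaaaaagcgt
Insig1: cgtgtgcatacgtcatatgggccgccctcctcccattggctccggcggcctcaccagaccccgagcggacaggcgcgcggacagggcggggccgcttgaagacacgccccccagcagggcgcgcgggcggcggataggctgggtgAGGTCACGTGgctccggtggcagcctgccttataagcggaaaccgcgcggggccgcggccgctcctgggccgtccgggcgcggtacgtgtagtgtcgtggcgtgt
Hmgcs1: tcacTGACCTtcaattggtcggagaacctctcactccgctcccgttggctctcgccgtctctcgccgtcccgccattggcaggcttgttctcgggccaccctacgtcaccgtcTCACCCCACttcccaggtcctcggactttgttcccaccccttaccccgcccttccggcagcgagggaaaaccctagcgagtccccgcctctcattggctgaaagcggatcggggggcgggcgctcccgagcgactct
Thbs2: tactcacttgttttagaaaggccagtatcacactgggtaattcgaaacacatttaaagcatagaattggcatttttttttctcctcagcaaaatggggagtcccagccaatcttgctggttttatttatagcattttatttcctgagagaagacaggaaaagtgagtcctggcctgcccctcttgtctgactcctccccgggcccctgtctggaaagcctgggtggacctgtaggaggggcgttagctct
The half-site stands in Elovl6, Insig1 and Hmgcs1, in Insig1 overlapping the E-box, and Hmgcs1 also holds the sterol element. The window of Thbs2 holds none of the motifs. Neither direction kept to this. The half-site also stands in the window of Fam13a, which had a negative difference, and is in none of the windows of Vldlr and Hsd17b7, which had positive ones, though that of Hsd17b7 holds the E-box. Searched on both strands in 32851 such windows, AGGTCA occurred in 14% of all windows, 10.6% of those of bright genes, 13.4% of those of genes with a positive difference and 7.88% of those with a negative one. CACGTG occurred in 6.02%, 9.2%, 10.8% and 6.4% of the same sets, and TCACNCCAC in 1.05%, 1.19%, 0.865% and 1.48%. The IR-1 inverted repeat of the half-site, the classical FXR element, occurred in 2 of all windows and in none of the bright genes. A motif is a run of letters and not an observed binding site.

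Genes of lipid synthesis had mostly positive differences. Lists of genes are described by their measured members, bright or not, beside 6.46% of all genes called for the difference and a median difference of -0.0087 over all genes. Of the bright genes, which fill several metabolic lists, 13.9% were called, with a median of 0.066. Below that share lay de novo lipogenesis (10.5%), mature adipocyte (12.5%), fatty acid oxidation (9.52%), oxidative phosphorylation (9.38%) and branched-chain amino acid breakdown (8.7%). Cholesterol synthesis (15.8%), the citric acid cycle (23.8%) and triglyceride genes (30.8%) lay above it. The FXR change was called higher for 9.14% of all genes in BAT and 1.47% in WAT, and lower for 10.4% and 0.587%. Of 19 cholesterol synthesis genes, all 19 had a positive difference, with a median of 0.46 from -0.22 in BAT and 0.21 in WAT, and 3 were called. They were Insig1, Hmgcs1 and Hsd17b7, a reductase late in the pathway (0.40 ± 0.08). Hmgcs1 read 10.72, 10.82, 10.74, 10.85 and 10.66 in control BAT and 10.45, 9.93, 10.32, 10.55 and 10.24 with FXR. In WAT the values were 7.86, 7.87, 7.87 and 7.96 in controls and 8.48, 8.43, 8.20 and 8.34 with FXR, with no overlap in either tissue and a difference of 0.93 ± 0.13 (adjusted p = 0.000501, limma). Without FXR BAT 1, 2 and 4 the list had 12 calls. The arrays left, FXR BAT 3 and 5, had its lowest BAT means, 8.32 and 8.32. FXR BAT 1, 2 and 4 read 8.74, 8.49 and 8.57, and control BAT 8.58 to 8.87, so FXR BAT 1 lay within the controls.

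De novo lipogenesis makes fatty acids from glucose carbon. The median difference of its 19 genes was 0.56, from -0.28 in BAT and 0.17 in WAT, 17 were positive, and 2 were called, Elovl6 and Pgd, a source of NADPH (1.07 ± 0.28). Fasn, the fatty acid synthase, differed by 0.95 ± 0.41 and did not pass (adjusted p = 0.203, limma). Its control WAT arrays spread from 9.34 to 11.27. Scd1, the stearoyl-CoA desaturase, differed by 0.06 ± 0.12, with a 95% interval from -0.19 to 0.30, and Srebf1, the lipogenic transcription factor, by 0.31 ± 0.16. These 3 genes were chosen after their values were seen. Leaving out FXR BAT 1, 2 and 4 raised the calls of this list to 6. The arrays left, FXR BAT 3 and 5, had its lowest BAT means, 10.34 and 10.56. FXR BAT 1, 2 and 4 read 11.01, 10.95 and 10.82, against 10.83 to 11.22 on control BAT. The call of Pgd was lost under either quantile normalization.

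Triglyceride synthesis and lipolysis had 8 positive calls among 26 genes and no negative one, a median difference of 0.34 and medians of -0.37 in BAT and -0.05 in WAT. Dgat2 read 12.34 to 12.71 on BAT arrays of controls and 11.94 to 12.36 on those with FXR, and in WAT 10.62 to 11.07 and 11.08 to 11.68. It differed by 0.94 ± 0.17 (adjusted p = 0.00346, limma). Agpat3, an acyltransferase of phospholipid and triglyceride synthesis, fell by 0.72 in BAT, had a WAT change of 0.0026 ± 0.07 and differed by 0.72 ± 0.10. Lpl, the lipase that releases fatty acids from lipoproteins, differed by 0.70 ± 0.13, and Cidec, a lipid droplet protein, by 0.46 ± 0.13. The calls of both were lost under either quantile normalization, where the list had 2 positive calls over all arrays, and 3 positive and 1 negative within tissues. Of 24 mature adipocyte genes, Gpd1, Lpl and Cidec were called for the difference. In BAT 0 of the 24 had a change above 0 and 12 were called lower. In WAT 4 were called lower and 1 higher, and the median changes were -0.30 in BAT and -0.19 in WAT. Adipoq, encoding adiponectin, differed by -0.04 ± 0.16 (chosen after its values were seen).

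Among 22 hypoxia and glycolysis genes, 18 of them bright, 4 were called (18.2%), all positive, with a median of 0.35. Tpi1, the triosephosphate isomerase, rose 1.47-fold in WAT and differed by 0.72 ± 0.16, and Pgam1, the phosphoglycerate mutase, fell by 0.37 in BAT and differed by 0.53 ± 0.09. Egln1, the oxygen-sensing hydroxylase, differed by 0.35 ± 0.08. Among 27 genes of insulin signalling and glucose use, Gys2, Pfkl (a phosphofructokinase subunit, 0.95 ± 0.15) and Pfkfb3 were positive and Grb14 negative. They made up 14.8% of the list, of which 25 genes were bright, near the 13.9% called over all bright genes. The calls of Tpi1 and Egln1 were lost under either quantile normalization.

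Thermogenic genes of brown adipocytes had 12 positive calls among 24 measured and no negative one. The median difference was 0.46, from -0.41 in BAT and 0.03 in WAT, and it was positive under each scaling. Only 7 of the 24 were bright in both tissues, and the WAT level of the others lay too near the floor to show a fall. Ucp1 is such a gene, chosen after its values were seen. It read 13.09, 13.42, 13.30, 13.24 and 13.20 in control BAT and 12.83, 13.00, 12.61, 12.79 and 12.62 with FXR, a 1.40-fold fall with no overlap, while its WAT arrays stayed at the floor. Kcnk3, a potassium channel of brown adipocytes, counted as bright in both tissues, but its control WAT mean lay below the level minimum. That mean was 1.89 times the 1% quantile and the FXR WAT mean 2.14 times, so its WAT side was near the floor as well. Kcnk3 read 9.26 to 9.71 on BAT arrays of controls and 8.76 to 9.13 with FXR, and in WAT 6.41 to 6.52 and 6.50 to 6.72. It differed by 0.82 ± 0.12 (adjusted p = 0.000723, limma). Cox8b, a subunit of cytochrome oxidase, differed by 0.63 ± 0.12, and Letmd1, a mitochondrial protein needed for brown fat function, by 0.46 ± 0.09. The last pair lost their calls under either quantile normalization. In whole tissue, fewer cells of a type and less RNA per cell cannot be told apart.

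The direction of most mitochondrial lists depended on the scaling. Oxidative phosphorylation, with 27 of 32 genes lower in BAT, had a median difference of 0.19 and 3 positive calls, but -0.09 and 4 negative calls under quantile normalization of all arrays. The citric acid cycle (21 genes, 5 positive calls, 0.19) turned to -0.03, fatty acid oxidation (21 genes, 2 positive calls, 0.16) to -0.11, and branched-chain amino acid breakdown (23 genes, 2 positive calls, 0.05) to -0.18. Mitochondrial ribosome genes kept a positive median, 0.17 and 0.07, with 7 calls of 34 and 0. Of the named genes here, Mcee, the methylmalonyl-CoA epimerase, kept its call under each scaling, with a fall of 0.60 in BAT, a WAT change of 0.07 ± 0.07 and a difference of 0.67 ± 0.10 (adjusted p = 0.000761, limma). The calls of Sdhd, Ndufa1, Dlat, Ogdh, Sucla2, Slc25a20, Etfdh and Oxct1 were lost under either quantile normalization. Branched-chain amino acid breakdown was lower in both tissues, with medians of -0.35 in BAT and -0.25 in WAT.

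**Figure D4:**
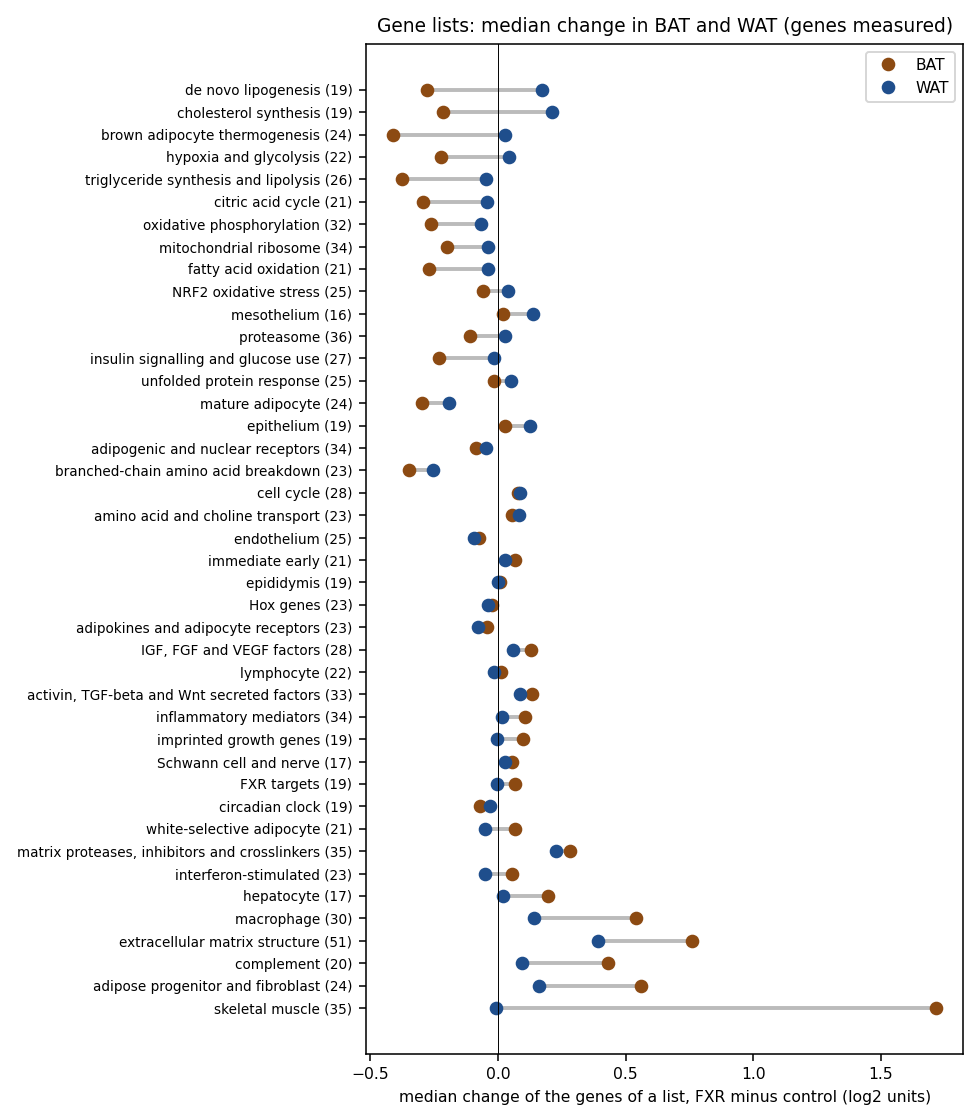
Median change of each gene list, FXR minus control in log2 units, in BAT and in WAT, joined by a line; the number of genes measured stands beside each name, and lists of under 15 genes are not drawn. Matrix, fibroblast, macrophage and complement lists lie further right in BAT, lipid and thermogenic lists further left, and the skeletal muscle list has its BAT median at 1.72.

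Stromal genes leaned the other way, with rises that were larger in BAT. Of 51 extracellular matrix genes, 38 rose in BAT and 22 in WAT, with median changes of 0.76 and 0.39. For the difference 16 were called negative and 5 positive, and the median was -0.33. Mfap4, a microfibril protein, rose in both tissues, by 1.65 in BAT and 0.66 in WAT, and differed by -0.99 ± 0.13 (adjusted p = 0.000294, limma). The 5 positive ones, of which Col4a1, Col4a2, Hspg2 and Prelp were named after their values were seen, were Col4a1, Col4a2, Hspg2, Prelp and Postn. Col4a1, Col4a2 and Hspg2 encode basement membrane components. The list had 0 positive calls under either quantile normalization. The fibrillar collagens Col1a1 and Col3a1, chosen after their values were seen, rose 2.85-fold and 2.87-fold in BAT, and their differences of -0.66 ± 0.30 and -0.98 ± 0.29 did not pass (adjusted p = 0.216 and 0.0524, limma).

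Of 24 adipose progenitor and fibroblast genes 21 rose in BAT and 5 in WAT. For the difference 12 were called, all negative, with a median of -0.51. Pdgfra, the receptor that marks adipose progenitors, read 7.77, 7.87, 8.08, 8.34 and 8.07 in control BAT and 9.46, 9.40, 9.63, 9.18 and 9.39 with FXR. In WAT it read 8.47, 8.54, 8.90 and 8.60 in controls and 9.01, 9.13, 9.00 and 9.11 with FXR. Both tissues separated, by 1.39 in BAT and 0.43 in WAT, the latter with adjusted p = 0.0576 (limma), and the difference was -0.95 ± 0.15 (adjusted p = 0.00143). Pcolce, which enhances procollagen processing, rose 2.92-fold and 1.63-fold and differed by -0.84 ± 0.19. Without FXR BAT 1, 2 and 4 its difference was -0.78 and the call was lost. Thy1, a fibroblast surface protein, differed by -0.44 ± 0.08. Without FXR BAT 1, 2 and 4 this list had 9 negative calls and a median of -0.52, and the matrix list had 15 negative calls and 1 positive.

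Secreted growth factors and their inhibitors were mixed. Of 33 activin, TGF-beta and Wnt genes 7 were called negative and 1 positive, and of 28 IGF, FGF and VEGF genes 5 negative and none positive. These calls were 24.2% and 17.9% of the lists, with 18 and 19 genes bright, beside 13.9% of all bright genes. Tgfb3, a TGF-beta ligand, rose 2.03-fold in BAT and 1.33-fold in WAT, without overlap in either tissue, and differed by -0.62 ± 0.07 (adjusted p = 0.000188, limma). Chrdl1, a BMP antagonist, differed by -0.85 ± 0.18 with neither tissue called. Igf1, the insulin-like growth factor, read 7.18 to 7.74 on BAT arrays of controls and 8.36 to 8.79 with FXR, and in WAT 8.36 to 8.64 and 8.67 to 8.87. It differed by -0.79 ± 0.15. Angpt1, an endothelial growth factor, differed by -1.01 ± 0.25, and Fgf2 by -0.35 ± 0.07. The call of Angpt1 was lost without control WAT 2, without FXR WAT 1 and without control BAT 2 and 4. Its FXR WAT mean lay below the level minimum, at 1.76 times the 1% quantile.

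Macrophage and complement genes also rose more in BAT. Of 30 macrophage genes 25 rose in BAT and 4 in WAT, 8 were called for the difference, all negative, and the median was -0.32. Csf1r, the M-CSF receptor of macrophages, read 7.33, 7.29, 7.77, 7.62 and 7.54 in control BAT and 8.55, 8.61, 8.47, 8.48 and 8.37 with FXR. The WAT arrays read 8.35, 8.48, 8.79 and 8.62 in controls and 8.76, 8.64, 8.81 and 8.90 with FXR, values that overlapped. It differed by -0.77 ± 0.14 (adjusted p = 0.00273, limma). Among 20 complement genes 10 were called negative and 1 positive, Cd59a (0.58 ± 0.13), an inhibitor of the lytic complex whose call was lost under either quantile normalization. C1qa and C1qb, subunits of C1q that also stand in the macrophage list, differed by -0.61 ± 0.15 and -0.81 ± 0.18. Without FXR BAT 1, 2 and 4, which leaves 2 FXR BAT arrays, 2 macrophage genes were called, Csf1r among those that passed, and no complement gene was called negative, with medians of -0.29 and -0.28. The macrophage list mean was 7.61, 7.48 and 7.53 on FXR BAT 1, 2 and 4 and 7.40 and 7.42 on FXR BAT 3 and 5. Control BAT read 6.83 to 7.14. For the complement list these means were 7.91, 7.81 and 7.74, then 7.63 and 7.68, against 7.13 to 7.38. Whether the calls went with the muscle signal of those arrays or with the smaller number of arrays was not tested. Ccl11, the eosinophil chemokine eotaxin, differed by -0.92 ± 0.16. For the markers of other cells limma called 0 differences among 22 lymphocyte, 25 endothelial, 16 mesothelial, 19 epithelial, 19 epididymal, 17 Schwann cell and nerve and 17 hepatocyte genes. At an unadjusted p below 0.05, which 20% of all genes reached, these lists held 3, 6, 1, 2, 1, 4 and 0 genes. Bright in both tissues were 2, 22, 5, 2, 0, 2 and 9 of their genes, and 0 calls among dim genes show little. Among 10 erythroid and platelet genes, 2 of them bright, 1 was called, negative.

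**Figure D5:**
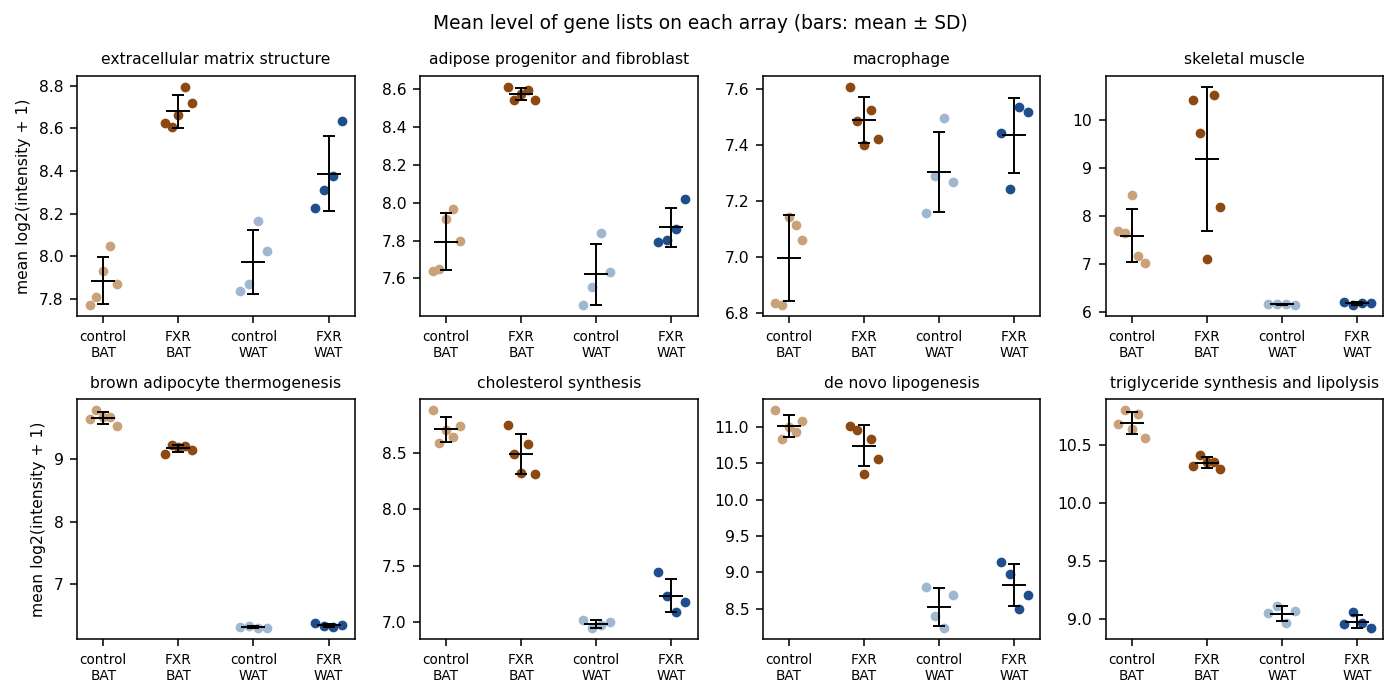
Mean level of 8 gene lists on every array, in log2(intensity + 1); points are arrays and bars the mean ± SD of the group. Matrix and fibroblast lists separate the genotypes in BAT more widely than in WAT, and the skeletal muscle list is high on FXR BAT 1, 2 and 4.

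Other pathways contributed single genes, several with changes that lay in WAT. Nr1d1, the clock repressor REV-ERB-alpha, read 9.72 to 9.85 on WAT arrays of controls and 8.94 to 9.39 with FXR, against 10.4 to 10.8 and 10.3 to 10.7 in BAT. It fell 1.61-fold in WAT and differed by -0.59 ± 0.13. Slc1a3, a glutamate transporter, and Slc43a1, an amino acid transporter, fell by 0.89 and 0.58 in WAT and differed by -0.78 ± 0.17 and -0.74 ± 0.11, with BAT not called. Sfxn1, the mitochondrial serine carrier, fell in both tissues, 1.31-fold in BAT and 1.79-fold in WAT, and differed by -0.45 ± 0.09. Agt, the precursor of angiotensin, fell by 0.44 in WAT and differed by -0.46 ± 0.10, a call lost without FXR BAT 1, 2 and 4.

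Within the unfolded protein response the members went separate ways. Hspa5 differed by 0.80 ± 0.13, while Xbp1, the transcription factor of the pathway, differed by -0.39 ± 0.08 and Pdia4, a disulfide isomerase, by -0.41 ± 0.10. Of 25 genes, 16 of them bright, 3 were positive and 2 negative (20%). Among 34 adipogenic and nuclear receptors, Nr1h3, the liver X receptor alpha, fell by 0.59 in BAT and differed by 0.49 ± 0.11. Cebpb, an early adipogenic factor, fell by 0.65 in BAT and differed by 0.61 ± 0.14. Both lost their calls under quantile normalization of all arrays. Pparg, the master regulator of adipocytes, fell by 0.37 in BAT, had a WAT change of -0.29 ± 0.08 that did not pass, and differed by 0.08 ± 0.10 (95% interval -0.14 to 0.30, chosen after its values were seen). Rarres2, encoding the adipokine chemerin, rose 1.91-fold in BAT and differed by -1.01 ± 0.17. Myc rose by 0.63 in BAT and differed by -0.89 ± 0.17, and its WAT arrays were all below the controls with a change of -0.26 ± 0.12 that did not pass.

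A set of genes was called in the same direction in both tissues, most of them without a called difference. Of the bright genes 107 rose in both (1.7%) and 47 fell in both (0.747%), and 92 and 45 of these were not called for the difference. Cilp, a cartilage matrix protein, read 6.54, 6.73, 6.66, 6.61 and 6.62 in control BAT and 8.32, 8.78, 8.57, 8.69 and 8.45 with FXR. Its WAT levels were 7.22, 7.39, 7.51 and 7.62 in controls and 8.76, 9.10, 9.12 and 9.00 with FXR. It rose 3.82-fold in BAT and 2.95-fold in WAT, and the 95% interval of the difference ran from -0.66 to -0.09 (adjusted p = 0.115, limma). Mgp, the matrix Gla protein that inhibits calcification, rose 3.17-fold and 2.48-fold, and Eln, encoding elastin, 2.38-fold and 2.91-fold with an interval from -0.44 to 1.02. Lbp, the lipopolysaccharide-binding protein, rose 3.69-fold and 2.11-fold with an interval from -1.33 to -0.29. Among the falls, Dbt, a subunit of the branched-chain ketoacid dehydrogenase, fell 1.51-fold and 1.49-fold with an interval of the difference from -0.22 to 0.26. Btnl9, a butyrophilin-like protein, fell 1.68-fold and 1.79-fold with an interval from -0.44 to 0.26. The interferon-induced Ifi27l2a fell 1.85-fold and 3.29-fold, and the carboxylesterase Ces1f 1.54-fold and 2.10-fold, with adjusted p of 0.245 and 0.383 for the difference (limma). A difference that did not pass does not show that the changes were equal.

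Mouse Nr1h4 and its classical target Nr0b2, which encodes the repressor SHP, were dim in both tissues. Nr1h4 read 6.15 to 6.31 in BAT and 5.85 to 6.05 in WAT, and its difference was -0.01 ± 0.05 (adjusted p = 0.93, limma). The sign changed with the scaling. Nr0b2 differed by -0.11 ± 0.07 (adjusted p = 0.406, limma). The probe set is one for the mouse gene, and whether it also reads the human transgene was not tested. Of 19 measured FXR target genes known mostly from liver and intestine 1 was called (5.26%), beside 6.46% of all genes. Only 5 of the 19 were bright in both tissues, and changes of dim genes are compressed. The list median was -0.07, and at an unadjusted p below 0.05 (limma) it held 2 positive and 4 negative differences. The gene called was Vldlr, the very-low-density lipoprotein receptor. It read 10.37 to 10.58 on BAT arrays of controls and 10.03 to 10.48 with FXR, and in WAT 7.76 to 8.14 and 8.33 to 8.46. It changed by -0.25 in BAT and 0.49 in WAT, a difference of 0.74 ± 0.12 (adjusted p = 0.00133, limma).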

How the data were processed

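RNA was measured on 18 Affymetrix mouse gene arrays. The deposited table gives 1 intensity per probe set and array on a linear scale; the authors' background correction, summarisation and normalization are not given in the sources used here, and the values were kept as deposited. Of 34760 probe sets 21640 carry 1 symbol in the platform annotation, 1321 several and 11799 none. Where a gene had several (954 genes), its brightest by the mean of the 18 arrays was kept, which left 19937 genes. After log2(intensity + 1), limma 3.58.1 (lmFit, eBayes; R 4.3.3) fitted 4 group means. The difference and both tissue changes come from this fit, two-sided, with Benjamini-Hochberg adjustment over all genes and a threshold of 0.05. Errors are limma's standard errors (SE), and intervals are 95%. The number of arrays limits the precision, and p-values measure the spread between the samples as labelled.

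Named genes were bright and called: the 12 largest differences per direction, up to 6 per pattern of opposite calls, and up to 3 per gene list by adjusted p. The 4 rises and 4 falls with the largest smaller change stood for genes called alike in both tissues and not for the difference, and Nr1h4 and Nr0b2 were named whatever their values. There were 43 lists with 1066 genes measured, described by counts and medians. Members and lists were chosen with earlier results of these data known. The alternatives were an offset of 16, quantile normalization, median centring, background subtraction, mean of probe sets, variance trend, array weights, a filter before the fit, fits within each tissue, replicate blocks, other level minimums and leaving out arrays. The fit was tested on simulated data. Promoter windows matched 82 of 118 named genes.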

Additional observations from a re-analysis of the deposited data

Results flagged for a closer look

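One array stood apart from the rest of its group in 20 of 428 groups of named genes tested, by a gap to the nearest array that took most of the group's range. Chance gives about 1 in 20 groups such an array.
On FXR BAT 1 Eepd1 read 7.73 against 7.27 to 7.35 on the others. On FXR BAT 2 Tgfb3 read 7.63 against 7.71 to 7.73 on the others and Slc43a1 7.54 against 7.35 to 7.37. On FXR BAT 3 Paqr9 read 8.31 against 8.83 to 8.99 on the others, Trp53inp2 9.20 against 9.36 to 9.41, Lpl 12.30 against 11.94 to 12.01 and Pdia4 9.40 against 9.19 to 9.24. On FXR BAT 5 Mcee read 10.09 against 10.24 to 10.30 on the others. On FXR WAT 3 Orm1 read 9.00 against 9.30 to 9.36 on the others and Plxdc2 7.56 against 7.32 to 7.35. On FXR WAT 4 Postn read 7.98 against 7.04 to 7.17 on the others, Col14a1 8.76 against 7.77 to 7.88 and Pcolce 8.98 against 8.28 to 8.36. On control BAT 2 Cebpb read 9.82 against 9.24 to 9.38 on the others. On control BAT 5 Letmd1 read 12.20 against 12.31 to 12.35 on the others. On control WAT 1 Esrra read 6.67 against 6.58 to 6.59 on the others. On control WAT 2 Trp53inp2 read 7.72 against 8.09 to 8.16 on the others. On control WAT 3 Serping1 read 9.99 against 9.05 to 9.20 on the others and C1qa 7.90 against 7.61 to 7.66. On control WAT 4 Hmgcs1 read 7.96 against 7.86 to 7.87 on the others.

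The change with FXR differed between WAT and BAT, by the test of the difference itself, for 97 named genes. They were picked from the genes called by this test, so that all 97 pass is set by the choice. The values are WAT change minus BAT change in log2 units, FXR minus control. The positive ones, largest first, began with Gys2 at 2.61, Paqr9 at 1.99, Orm1 at 1.44, Elovl6 at 1.43, Acsl5 at 1.35, Mtarc1 at 1.34, Mt2 at 1.33, Septin9 at 1.24, Postn at 1.17, Sorl1 at 1.17, Insig1 at 1.13 and Trp53inp2 at 1.12. They went on with Ctsz at 1.08, Pgd at 1.07, Adam12 at 0.98, Pfkl at 0.95, Gpd1 at 0.95, Dgat2 at 0.94, Hmgcs1 at 0.93, Kcnk3 at 0.82, Hspa5 at 0.80, Vldlr at 0.74, Agpat3 at 0.72 and Tpi1 at 0.72. Smaller positive differences were those of Sod2 at 0.70, Lpl at 0.70, Mcee at 0.67, Cox8b at 0.63, Cdkn1c at 0.62, Cebpb at 0.61, Cd59a at 0.58, Slc25a20 at 0.57, Oxct1 at 0.54, Pgam1 at 0.53, Nr1h3 at 0.49 and Letmd1 at 0.46. Below these came Sucla2 at 0.46, Cidec at 0.46, Psmc4 at 0.46, Mrps18a at 0.44, Dlat at 0.43, Etfdh at 0.41, Hsd17b7 at 0.40, Mrpl18 at 0.39, Ndufa1 at 0.38, Mrpl4 at 0.37, Sod3 at 0.36 and Sdhd at 0.35. The smallest positive ones were Egln1 at 0.35, Ogdh at 0.34, Gclm at 0.33, Esrra at 0.32 and Csnk1d at 0.25. The negative ones began with Thbs2 at -2.36, Ogn at -1.72, Fam13a at -1.60, Col14a1 at -1.40, Gpc3 at -1.33, Mfap5 at -1.31, Plxdc2 at -1.28, Ccdc80 at -1.23, Dpt at -1.22, Serping1 at -1.22, Inhba at -1.16 and Emp1 at -1.16. Next came Podn at -1.07, Rarres2 at -1.01, Angpt1 at -1.01, Mgst3 at -1.003, Mfap4 at -0.99, Grb14 at -0.97, Pdgfra at -0.95, Ccl11 at -0.92, Myc at -0.89, Chrdl1 at -0.85, Pcolce at -0.84 and Cited2 at -0.81. Smaller negative differences were those of C1qb at -0.81, Igf1 at -0.79, Slc1a3 at -0.78, Csf1r at -0.77, Serpinf1 at -0.75, Slc43a1 at -0.74, C1s1 at -0.70, Tgfb3 at -0.62, C1qa at -0.61, Nr1d1 at -0.59, Pf4 at -0.58 and Eepd1 at -0.55. The smallest were Plagl1 at -0.51, Agt at -0.46, Sfxn1 at -0.45, Thy1 at -0.44, Pdia4 at -0.41, Xbp1 at -0.39, Meg3 at -0.38 and Fgf2 at -0.35.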

How the results depend on the processing

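For the difference between tissues, the bright genes called numbered 656 positive and 217 negative. Quantile normalization gave 252 positive calls, quantile normalization within each tissue, which was chosen after seeing the data, 304, median centring 1112, leaving out control BAT 2 and 4 (the arrays with the added feeding note) 349, and a level minimum of 4 times 261 positive and 77 negative. Leaving out 1 array at a time gave 461 positive calls without FXR WAT 1 to 785 without control BAT 5, and 163 negative calls without FXR WAT 2 to 243 without FXR BAT 3. Negative calls otherwise stayed within 1.5 times of the main count.

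In BAT, 1493 negative calls became 522 under quantile normalization, 801 under quantile normalization within the tissue, 2678 under median centring, 758 without control BAT 2 and 4, 915 without FXR BAT 1, 2 and 4 and 551 at a level minimum of 4 times, with 1155 to 1713 when 1 array was left out. The 706 positive calls became 1183 and 191 at level minimums of 1.5 and 4 times, with 611 to 732 when 1 array was left out. In WAT, 215 positive calls became 350 under quantile normalization, 407 with array weights, 126 in a fit of WAT alone and 91 at 4 times. The 92 negative calls became 326 under quantile normalization, 150 within the tissue, 186 with array weights, 142 with the filter before the fit and 52 at 4 times. Leaving out 1 array gave 120 positive calls without control WAT 2 to 307 without control WAT 3, and 54 negative calls without control WAT 2 to 111 without FXR BAT 3. A level minimum changes how many genes are counted, and a left-out array how many are compared; the cause of the other shifts was not tested.

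Over the named genes and alternatives, 203 calls were lost. The sign changed for Nr1h4 alone, a gene not called, to 0.034, 0.050, 0.019, 0.0062 and 0.0091 under quantile normalization, median centring, quantile normalization within tissues, array weights and without control BAT 2 and 4, and to 0.0011 and 0.021 without control WAT 1 and FXR WAT 1, in a range from -0.047 when 1 array was left out. Of the 97 called genes 54 kept the call in every alternative run. Csnk1d, Sod3, Postn, Cidec, Ndufa1, Esrra and Pf4 were lost most often. Scaling by quantiles moved the median difference of 13 lists across 0: mature adipocyte, fatty acid oxidation, oxidative phosphorylation, citric acid cycle, branched-chain amino acid, proteasome, NRF2, adipogenic and nuclear receptor, amino acid and choline transport, endothelium, Hox, epididymis and, over all arrays alone, matrix protease genes. Median centring did so for 9 lists. Leaving out control BAT 2 and 4 took the negative calls from 8 to 4 for macrophage and from 10 to 6 for complement genes. Positive calls went from 5 to 1 for the citric acid cycle, from 7 to 3 for the mitochondrial ribosome and from 5 to 0 for extracellular matrix genes. The negative calls of the matrix (16) and fibroblast (12) lists stayed, and positive calls of cholesterol synthesis went from 3 to 4. A level minimum of 2 times in every group, chosen after seeing the data, left 633 positive and 190 negative calls for the difference.

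Replicate numbers are shared by the groups, and the labels tie them to no animal or batch. Same-numbered BAT and WAT arrays deviated together with r above 0.1 in 4 of 4 FXR pairs and 3 of 4 control pairs, from -0.17 to 0.27, and 6 of 8 BAT arrays correlated best with their own number in WAT. This is a hint of a pairing; since a pairing was to be taken only where every pair exceeded 0.1, and control pair 4 did not, the numbers were not used as a block in the values reported. With the replicate block as a fixed term 730 positive and 260 negative bright genes were called, and 773 and 256 with a random term. Csnk1d was lost with the fixed term.

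Signal over background limits the WAT side: 13645 of the genes were not bright in both tissues, and 415 of them were called for the difference.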

Other observations

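Several gene groups outside the comparisons above also differed in part. Of 19 imprinted growth genes, Cdkn1c, a cell cycle inhibitor, fell 1.38-fold in BAT and differed by 0.62 ± 0.15, whereas Plagl1, a growth-regulating transcription factor, and the non-coding Meg3 rose in BAT and differed by -0.51 ± 0.11 and -0.38 ± 0.10 (adjusted p from 0.0132 to 0.0221, limma). All 3 lost their calls under quantile normalization of all arrays. Mest, an imprinted gene tied to adipocyte size, rose in both tissues, 1.78-fold in BAT and 3.04-fold in WAT, and its difference of 0.77 ± 0.25 did not pass (adjusted p = 0.0823, limma). Lep, encoding leptin, rose 1.99-fold in BAT and 2.47-fold in WAT, with a difference of 0.31 ± 0.35. Mest and Lep were chosen after their values were seen. Their control BAT means lay below the level minimum, at 1.86 and 1.87 times the 1% quantile.

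Nnt, the mitochondrial nicotinamide nucleotide transhydrogenase, read 7.08, 6.94, 7.18, 7.15 and 7.17 in control BAT and 8.57, 7.86, 7.34, 8.82 and 7.41 in FXR BAT, with the 3 highest values on the arrays with the high skeletal muscle list. It differed by -1.09 ± 0.32 between tissues (adjusted p = 0.0494, limma) and by -0.46 without FXR BAT 1, 2 and 4. It was chosen after its values were seen, and the part of the muscle signal in it was not tested.

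FXR WAT 1 had a mean level of 6.34 over 19 epididymis genes, against 5.76 to 5.88 on the other WAT arrays, and 6.57 over 19 epithelial genes. FXR WAT 4 had a mean of 6.43 over 28 cell cycle genes, against 6.07 to 6.16 on the other WAT arrays. Postn, Col14a1 and Pcolce were highest in WAT on FXR WAT 4, at 7.98, 8.76 and 8.98. Probe sets without a single symbol were tested apart: of 1321 with several symbols 14 were called for the difference (1.06%), 13 positive and 1 negative, and of 11799 with none 30 were called (0.254%), 22 positive and 8 negative.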
